A study of Mus musculus with 9 samples.

Results

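The constitutive proteasome is described here through the genes of its core and regulatory particles in mouse pancreatic tumor cells before and after escape from immunotherapy. Members were all genes of the expression table whose symbol is Psma, Psmb, Psmc or Psmd followed by a number, without the immunoproteasome genes Psmb8, Psmb9 and Psmb10, together with Psme3, Psme4 and Psmf1. They numbered 39 of 24493 genes, and 37 of them were among the 12769 genes tested. RNA sequencing covered 9 libraries in 3 groups of 3: the parental pancreatic tumor cells and the resistant lines escape e1 and escape e2 derived from them. C57BL/6 is the mouse background of all 3 groups, and every culture was kept in DMEM plus serum and received no treatment. Whether each escape line is a clone or a pool, and which immunotherapy it survived, is not given in the sources used here. Levels are in TPM, an abundance corrected for transcript length and scaled to the same total in each library, so that levels of different genes can be compared within a library. Read depth is lost on this scale and is unknown here, and no counting interval can be given. Nothing in the labels tells if libraries of 1 group are separate cultures. The p-values thus cover the spread between these libraries alone, which may be technical.

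The proteasome is the protease that degrades proteins marked with ubiquitin chains. Its core particle is a barrel of stacked rings, with gate-forming alpha subunits (Psma genes) outside and beta subunits (Psmb genes) inside, where 3 beta subunits carry the proteolytic sites. The regulatory particle caps the barrel: a ring of ATPases (Psmc genes) unfolds substrates, and non-ATPase subunits (Psmd genes) bind ubiquitin, remove it and hold the lid together. Peptides it releases feed MHC class I presentation, and cells exposed to interferon exchange the proteolytic subunits for those of the immunoproteasome. When proteasome activity is limiting, the transcription factor NFE2L1 is known to raise the proteasome genes together.

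The promoters of 6 members are shown because each particle is built from all of its subunits, while these genes differed in direction or size between groups. They were chosen after their values were seen. Each line gives the 250 bases before a RefSeq start of the gene (build GRCm38.p6), 5′ to 3′ on the strand of the gene. Capitals mark TGACNNNGC, the core bound by NFE2L1 and NFE2L2, and CCGGAAG, bound by ETS factors, on either strand. Psma5 lies at chr3:108256676-108256925 on the plus strand, Psmb5 at chr14:54617996-54618245 on the minus strand, Psmc6 at chr14:45329574-45329823 on the plus strand, Psmd6 at chr14:14120946-14121195 on the minus strand, Psmd2 at chr16:20651402-20651651 on the plus strand and Psmd13 at chr7:140882144-140882393 on the plus strand.
Psma5: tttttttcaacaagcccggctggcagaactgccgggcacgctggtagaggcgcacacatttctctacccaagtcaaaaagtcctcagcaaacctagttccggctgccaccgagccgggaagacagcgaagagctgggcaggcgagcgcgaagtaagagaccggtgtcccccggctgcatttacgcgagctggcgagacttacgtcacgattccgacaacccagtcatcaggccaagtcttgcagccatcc
Psmb5: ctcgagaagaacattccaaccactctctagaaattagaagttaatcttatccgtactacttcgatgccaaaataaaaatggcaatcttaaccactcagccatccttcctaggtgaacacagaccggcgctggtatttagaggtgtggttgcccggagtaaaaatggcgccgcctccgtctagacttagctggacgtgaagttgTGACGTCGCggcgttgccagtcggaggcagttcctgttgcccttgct
Psmc6: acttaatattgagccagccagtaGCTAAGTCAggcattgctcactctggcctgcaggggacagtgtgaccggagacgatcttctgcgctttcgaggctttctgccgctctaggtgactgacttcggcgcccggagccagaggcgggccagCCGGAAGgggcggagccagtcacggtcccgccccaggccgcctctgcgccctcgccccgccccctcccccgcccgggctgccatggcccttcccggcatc
Psmd6: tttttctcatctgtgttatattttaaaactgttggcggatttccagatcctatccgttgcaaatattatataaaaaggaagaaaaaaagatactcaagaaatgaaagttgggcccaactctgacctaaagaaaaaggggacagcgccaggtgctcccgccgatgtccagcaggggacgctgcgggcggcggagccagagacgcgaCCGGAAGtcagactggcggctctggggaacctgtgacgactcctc
Psmd2: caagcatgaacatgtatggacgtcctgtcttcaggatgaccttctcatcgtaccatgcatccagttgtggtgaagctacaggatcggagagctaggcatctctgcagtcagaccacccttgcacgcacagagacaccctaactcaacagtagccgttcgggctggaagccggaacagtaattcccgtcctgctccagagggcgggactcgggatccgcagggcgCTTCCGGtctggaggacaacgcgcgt
Psmd13: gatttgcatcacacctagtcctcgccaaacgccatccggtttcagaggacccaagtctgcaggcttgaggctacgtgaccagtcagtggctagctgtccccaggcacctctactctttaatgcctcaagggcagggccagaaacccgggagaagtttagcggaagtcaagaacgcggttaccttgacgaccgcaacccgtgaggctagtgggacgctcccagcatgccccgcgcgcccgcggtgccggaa
Windows reaching from 250 bases before to 50 bases after the start were found for 32 of 39 members, 34 windows in all, and 8 motifs were searched in them on both strands. CCGGAAG was in 38.2% of the member windows, against 8.86% of all 32841 windows and 17.6% of the windows of tested genes. Psmc6, Psmd6 and Psmd2 hold it before the start, and Psmd13 has a match that begins 6 bases before the start and crosses it. TGACNNNGC was in 17.6% of member windows, against 12.4% of all windows and 14.3% of those of tested genes. Its 6 members were Psmb5, Psmb6, Psmc6, Psmd9, Psmd12 and Psme4, and in Psmb5 it begins 47 bases before the start. CCAAT, the NF-Y motif, was in 38.2% of member windows and in 37.4% of all. The window of Psmd2 belongs to a start inside the annotated span of the gene. Psma5 holds neither of the capitalised motifs in the printed stretch.

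Before the members are compared, 1 library stands apart. In escape e1 library 1, each of the 17 regulatory particle genes was higher than in both other e1 libraries, with a median gap of 0.27 on the log2(TPM + 1) scale. The same library was highest for 9 of 14 core particle genes with a median gap of 0.03, and for 38.5% of all tested genes with a median gap of -0.03. Counts and calls of members that differ without this library are given beside the results. Pearson correlations of log2 values over genes within groups ran from 0.987 to 0.995. Markers of pancreatic ductal epithelium summed to 8260 to 9543 TPM over 8 genes in parental libraries, but to 1185 to 1223 TPM in e1 and 1718 to 1782 TPM in e2. Of these 8 genes 7 were called lower in both lines, Epcam reaching 0.296 TPM in e1 and 0.185 TPM in e2 on average. Sox9 was called higher, at 6.07 TPM in parental cells, 17.6 TPM in e1 and 41.4 TPM in e2. Of 7 fibroblast markers, 5 were at 0 in all parental libraries (Col1a2, Col3a1, Dcn, Lum and Pdgfrb). The sum of all 7 rose from 0.637 to 0.934 TPM there to 307 to 325 TPM in e1 and 228 to 239 TPM in e2. Lum stayed at 0 in every library, and Dcn averaged 0.148 TPM in e1 and 35.5 TPM in e2. The part of these marker changes in the results was not tested. The summed TPM of leukocyte markers ran from 1.58 to 2.09 in parental libraries, from 2.92 to 4.03 in e1 and from 5.14 to 5.77 in e2, nearly all of it Cd68, which was called higher in both lines, while Cd3e was at 0 in every library. The 4 endothelial markers summed to less than 1 TPM in each.

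**Figure D1:**
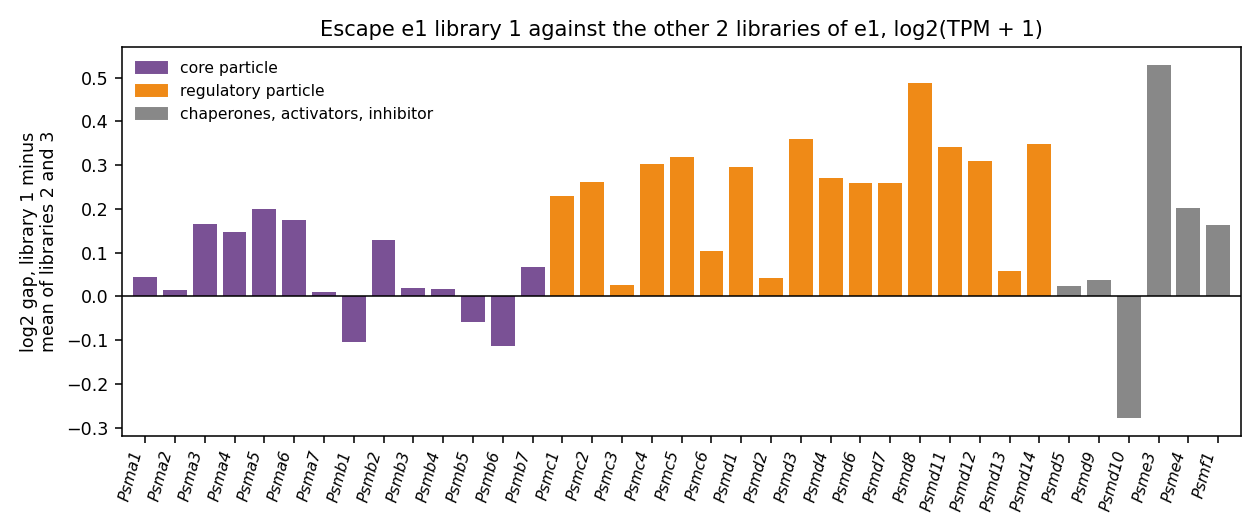
Log2 gap between escape e1 library 1 and the mean of e1 libraries 2 and 3 for each of the 37 tested members, on the log2(TPM + 1) scale, coloured by particle. All 17 regulatory particle bars lie above 0, up to 0.49 for Psmd8, whereas core bars lie on both sides of 0.

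Summed over subunits, core particle transcripts were higher in e1 and lower in e2 than in parental cells, and regulatory particle transcripts were lower in e2. The 14 core genes summed to 5020, 5074 and 4910 TPM in the parental libraries, 6354, 6189 and 6109 TPM in e1 and 4806, 4684 and 4690 TPM in e2. The 3 groups did not overlap. Sem1 and Adrm1 are subunit genes with other symbols and are not among the 17 regulatory genes. The regulatory sum and the ratio leave them out. The 17 genes summed to 3773, 4022 and 3900 TPM in parental cells, 4635, 3908 and 3898 TPM in e1 and 3248, 3168 and 3176 TPM in e2. Here e2 lay below both other groups, and e1 overlapped with parental cells in libraries 2 and 3 while library 1 stood above. The ratio of core to regulatory sums was 1.28 ± 0.0407 (SD, n = 3) in parental cells, 1.51 ± 0.118 in e1 and 1.478 ± 0.00126 in e2. The lowest escape library, e1 library 1 at 1.37, was above the highest parental library at 1.33. All members together made up 0.921% ± 0.0184 of parental TPM, 1.07% ± 0.0571 of e1 and 0.823% ± 0.0117 of e2. In bulk RNA fewer cells of a type and less RNA per cell cannot be told apart.

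**Figure D2:**
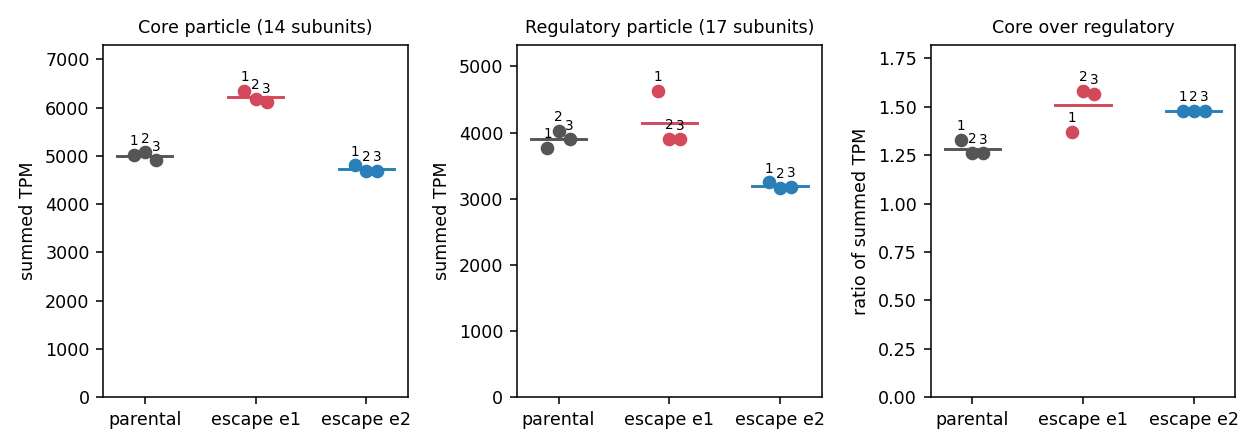
Summed TPM of the 14 core genes (left) and 17 regulatory genes (middle) and their ratio (right) in each library, numbered by library, with a bar at the group mean. The e2 libraries are lowest in both sums, and in e1 library 1 the regulatory sum of 4635 TPM stands above the 3898 and 3908 TPM of the other 2.

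Of the 37 members tested, 20 were higher and 7 lower in e1 than in parental cells at an adjusted p under 0.05 (limma, Benjamini-Hochberg over all genes). Most of the transcriptome was called in this comparison, 70.6% of tested genes (35.7% higher, 34.9% lower), so 27 calls among 37 members (73%) are near the background and only the direction, 54.1% higher and 18.9% lower, is away from it. Without e1 library 1, 20 members were higher and 10 lower in e1. In e2 against parental cells 6 members were higher and 19 lower, where 73.5% of all genes were called (40.8% higher, 32.7% lower). That split was 2 higher and 19 lower when TPM were rescaled by median ratios, and likewise in the deposited rlog values. Between the lines, 6 members were higher and 24 lower in e2 than in e1, against 40.6% and 29.7% of all genes (70.3% called). They were 5 higher and 24 lower without e1 library 1. The median log2 fold change over members was 0.19 in e1, -0.14 in e2 and -0.37 for e2 against e1, beside 0.02, 0.07 and 0.09 over all tested genes. The libraries of the 2 groups did not overlap for 26 of 37 members in e1 against parental cells (71.4% of all genes), for 26 in e2 against parental cells (81.4%) and for 32 in e2 against e1 (76.5%). The comparisons share libraries with each other, so they are given side by side and their likeness is not tested.

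**Figure D3:**
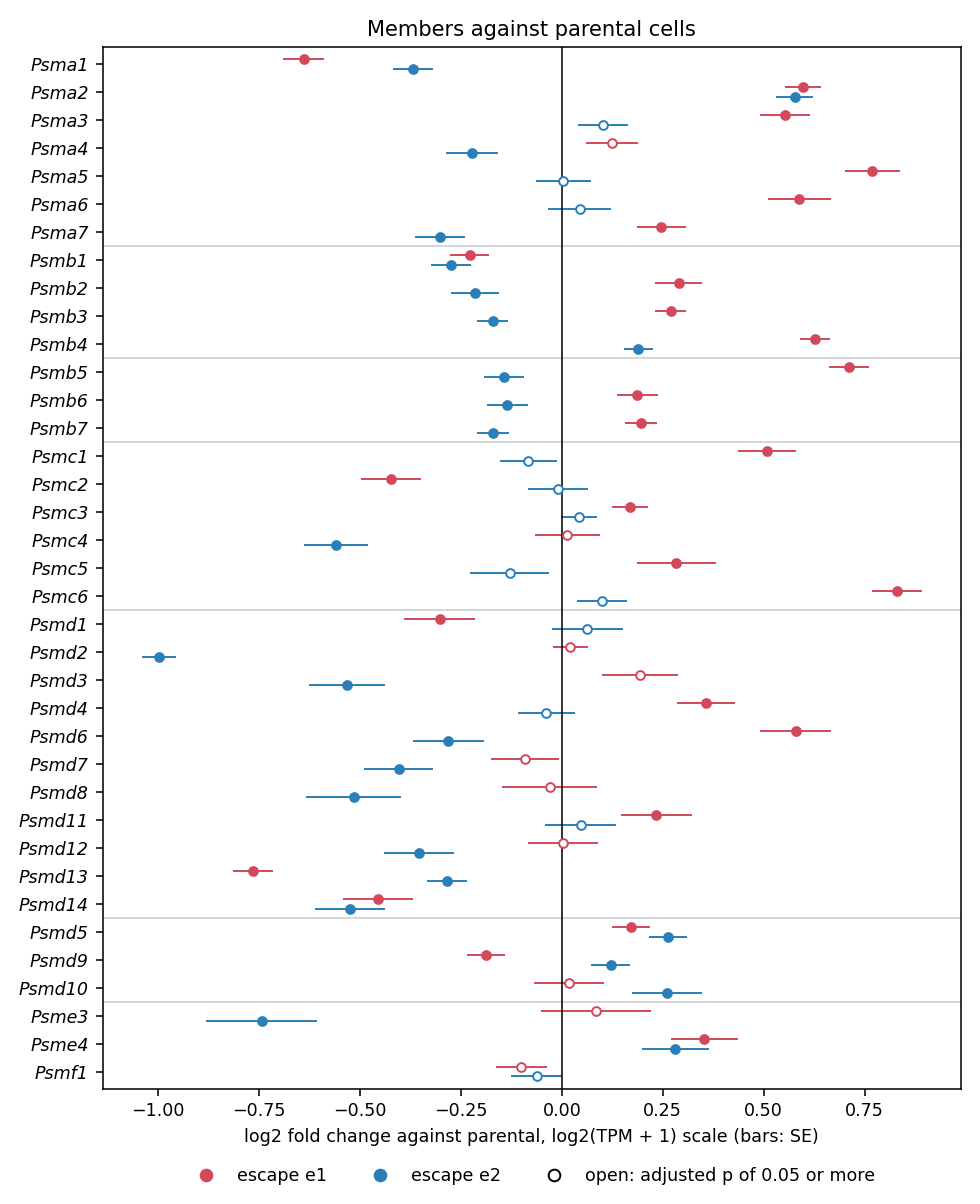
Log2 fold change against parental cells (log2(TPM + 1) scale, bars are SE) for the 37 tested members, with e1 in red and e2 in blue and open circles where the adjusted p is 0.05 or more. Lines separate, from the top, the alpha ring, the structural and catalytic beta subunits, the ATPases, the non-ATPase subunits, the assembly chaperones, and the activators with the inhibitor. Values run from -0.998 for Psmd2 in e2 to 0.83 for Psmc6 in e1.

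The proteolytic subunits were higher in e1 and lower in e2. Psmb5 on chromosome 14 (54614120 to 54617995), which carries the chymotrypsin-like site, stood at 276, 268 and 256 TPM in parental libraries, 425, 447 and 439 TPM in e1 and 250.4, 234 and 240.5 TPM in e2. All e1 libraries lay above all others, and all e2 libraries below the parental ones. Its log2 fold change was 0.71 ± 0.05 (SE) in e1 (adjusted p = 8.86e-07), -0.14 ± 0.05 in e2 (adjusted p = 0.0237) and -0.85 ± 0.05 for e2 against e1 (adjusted p = 3.75e-07). Psmb7, with the trypsin-like site, stood at 515, 533 and 523 TPM in parental cells, 619, 595 and 586 TPM in e1 and 471, 459.9 and 464 TPM in e2. Its fold changes were 0.20 ± 0.04 in e1 and -0.17 ± 0.04 in e2, with no overlap between groups, while its exons overlap those of Nek6 on the other strand by 405 bases and the strand setting of the counting is not given. Psmb6, with the caspase-like site, stood at 274, 287 and 282 TPM, at 304, 326 and 331 TPM in e1 and at 265, 254 and 249 TPM in e2. It rose in e1 by 0.19 ± 0.05 and fell in e2 (-0.14 ± 0.05, adjusted p = 0.0348). With median-ratio scaling the e2 values were larger, at -0.24 for Psmb5, -0.23 for Psmb6 and -0.27 for Psmb7. The e2 calls of Psmb5 and Psmb6 were lost under other settings: with the 10 highest genes removed the adjusted p was 0.0911 and 0.0786. Both calls were lost without parental library 2 and without e2 libraries 2 or 3, and that of Psmb6 also without parental library 3 (adjusted p from 0.056 to 0.124). The Psmb6 call was lost as well with the library number as a block (0.0683) and in the fit with no trend or robustness (0.0549).

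Of the other beta subunits, which shape the inner rings, Psmb4 had the largest rise. It stood at 483, 486 and 482 TPM in parental cells, 753, 752 and 737 TPM in e1 and 561, 551 and 543 TPM in e2, and became the most abundant core transcript in both lines. The rise was 0.63 ± 0.04 in e1 (adjusted p = 2.84e-07) and 0.19 ± 0.04 in e2, and the latter was no longer called with median-ratio scaling (0.09) or the rlog values (0.08). Psmb1 moved the other way and fell in both lines, from 494, 495 and 464 TPM to 394, 432 and 415 TPM in e1 (-0.23 ± 0.05) and 406, 395 and 399.7 TPM in e2 (-0.28 ± 0.05). Psmb2 and Psmb3 followed the proteolytic subunits. Psmb2 rose from 244 ± 9.51 to 299 ± 20.6 TPM in e1 and fell to 209.9 ± 2.36 TPM in e2, and Psmb3 from 462 ± 9.83 to 557 ± 4.62 and to 410.2 ± 5.90 TPM (SD, n = 3).

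The alpha ring split by subunit. Psma1 on chromosome 7 (114264550 to 114276116) stood at 328, 356 and 344 TPM in parental cells, 224, 216 and 218 TPM in e1 and 274, 255 and 266 TPM in e2. It fell by 0.64 ± 0.05 in e1 (adjusted p = 2.13e-06) and by 0.37 ± 0.05 in e2 (adjusted p = 0.000104), and was the only alpha gene that fell in e1. Psma2 rose alike in both lines, from 279, 304 and 293 TPM to 445, 435 and 445 TPM in e1 and 443, 432 and 429.9 TPM in e2 (0.60 ± 0.04 and 0.58 ± 0.04). Their difference of -0.02 ± 0.04 was not called, but it was with median-ratio scaling (-0.12, adjusted p = 0.0265) and the rlog values (-0.11, adjusted p = 0.0452). Psma5 stood at 256, 290.3 and 273 TPM in parental cells, 510.3, 451 and 438 TPM in e1 and 277, 271 and 272 TPM in e2, so that e1 lay apart and e2 within the parental range. Its log2 fold change was 0.77 ± 0.07 in e1 (adjusted p = 5.4e-06) and 0.0040 ± 0.07 in e2. Psma3 and Psma6 had the same form, with 0.55 ± 0.06 and 0.59 ± 0.08 in e1 and 0.10 ± 0.06 and 0.04 ± 0.08, not called, in e2. Psma7, the most abundant core transcript of parental cells at 554 ± 51.2 TPM, rose to 655 ± 7.97 TPM in e1 and fell to 448 ± 3.15 TPM in e2, and Psma4 was called only in e2 among the comparisons with parental cells (-0.22 ± 0.06). Counted by gene, 11 of 14 core genes were higher and 2 lower in e1, 2 higher and 9 lower in e2, and 1 higher and 11 lower in e2 than in e1. As shares, 78.6% were higher in e1 and 64.3% lower in e2, beside 35.7% and 32.7% of all tested genes.

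**Figure D4:**
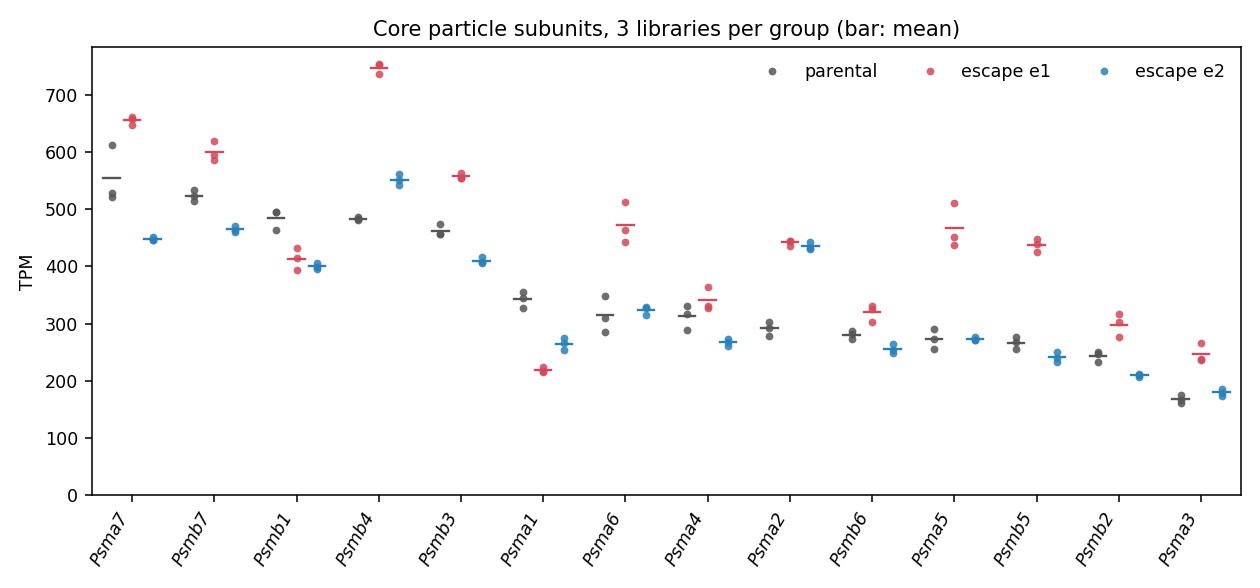
TPM of the 14 core particle genes in every library, ordered by parental mean, with parental libraries in grey, e1 in red and e2 in blue, and a bar at each mean. Psma1 and Psmb1 are the 2 genes whose e1 libraries lie below the parental ones, and Psmb4 reaches 753 TPM in e1.

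The regulatory particle genes with Psmc and Psmd symbols were called in both directions in e1 and in 1 direction in e2. The subunit genes Sem1 and Adrm1 carry other symbols and are not among these 17. Sem1, at 583 TPM in parental cells, was called higher in e1 (0.29 ± 0.07, to 712 TPM) and in e2 (0.22 ± 0.07, to 681 TPM). Its e2 call was lost in the rlog values (adjusted p = 0.0628) and without e2 library 1 (0.0594). Adrm1 was called lower in e2 (-0.47 ± 0.11). Of 17, 7 were higher and 4 lower in e1, 0 higher and 9 lower in e2, and 3 higher and 12 lower in e2 than in e1. In e1 the shares of 41.2% higher and 23.5% lower are near those of all tested genes, 35.7% and 34.9%. In e2 52.9% were lower, beside 32.7% of all genes, and in e2 against e1 70.6% were lower, beside 29.7%. In e2 against parental cells, limma gave 9 genes at an unadjusted p under 0.05, all of them lower, and with the 10 highest genes removed 1 gene, Psmc6, was called higher (0.14). Without e1 library 1 the counts in e1 were 7 higher and 6 lower. The levels of the 17 genes spanned the narrowest range in e2: the highest was 2.24 ± 0.0466 times the lowest there (SD, n = 3). It was 3.13 ± 0.113 times in parental cells and 4.08 ± 0.0287 times in e1, and the 3 groups did not overlap in this ratio. The ratio rests on 1 gene at each end. The highest was Psmd2 in parental cells and e1 but Psmc3 in e2, and the lowest in e1 was Psmd13.

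Among the ATPases, which thread substrates into the core, Psmc6 on chromosome 14 (45329823 to 45349074) rose most in e1. It stood at 136, 154 and 143 TPM in parental cells, 269.9, 251 and 251 TPM in e1 and 161, 154 and 148 TPM in e2 (0.83 ± 0.06 in e1, adjusted p = 1.57e-06, and 0.10 ± 0.06 in e2, adjusted p = 0.175). Psmc2 went down in e1, from 223, 244 and 238 TPM to 198, 167 and 163 TPM (-0.42 ± 0.07, adjusted p = 0.000603), and was at 234, 234 and 233 TPM in e2. Psmc4 showed the reverse form, at 228, 239 and 239 TPM in parental cells, 273, 221 and 221 TPM in e1 and 156, 158 and 164 TPM in e2. It fell only in e2 among these comparisons (-0.56 ± 0.08, adjusted p = 0.000149), where no e2 library overlapped with another group. In e1 its value of 0.01 ± 0.08 turned to -0.087 without e1 library 1 and to -0.0096 without parental library 1. Psmc1, Psmc3 and Psmc5 were higher in e1 by 0.51 ± 0.07, 0.17 ± 0.04 and 0.28 ± 0.10 and not called in e2. The value of Psmc5 was 0.18 without e1 library 1, and its call was lost without parental library 1 (adjusted p = 0.0928) and in the fit of 2 groups (0.0588).

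The non-ATPase subunits held the largest fall of all members. Psmd2 on chromosome 16 (20651122 to 20663414), a scaffold that docks ubiquitin receptors, stood at 405, 431 and 427 TPM in parental cells, 435, 423 and 422 TPM in e1 and 213, 208 and 210.1 TPM in e2. Its level in e2 was thus 0.499 times the parental mean, with a log2 fold change of -0.998 ± 0.04 (adjusted p = 2.97e-08), while e1 overlapped with parental cells (0.02 ± 0.04, adjusted p = 0.686). The lid subunit gene Psmd3 fell in e2 by 0.53 ± 0.09, Psmd8 by 0.52 ± 0.12, Psmd7 by 0.40 ± 0.09 and Psmd12 by 0.35 ± 0.09, and none of these 4 was called in e1 with all libraries. Without e1 library 1, Psmd7 and Psmd8 were lower in e1 than in parental cells (-0.18, adjusted p = 0.0343, and -0.19, adjusted p = 0.00502). Psmd3 was called higher in e1 without e1 library 2 (0.26, adjusted p = 0.0388). Psmd8 in e2 against e1 moved from -0.49 to -0.32 without e1 library 1.

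Psmd13, another lid subunit gene, fell in both lines and most in e1. It stood at 177, 186 and 173 TPM in parental cells, 107, 103 and 103 TPM in e1 and 151, 145 and 143 TPM in e2 (-0.76 ± 0.05, adjusted p = 5.43e-07, and -0.28 ± 0.05, adjusted p = 0.000543), and the 3 groups did not overlap. Its exons overlap those of Sirt3 on the other strand by 342 bases, and Sirt3 itself reached at most 12.2 TPM in any library. Psmd14, the enzyme that removes ubiquitin chains at the entry of the core, also fell in both lines, from 253, 255 and 249.6 TPM to 216, 172 and 167 TPM in e1 (-0.46 ± 0.09) and 176, 173 and 177 TPM in e2 (-0.52 ± 0.09). Psmd6, a lid subunit gene, stood at 124, 147 and 142 TPM in parental cells, 232, 196 and 192 TPM in e1 and 118, 108 and 113 TPM in e2. It rose by 0.58 ± 0.09 in e1 and fell in e2 (-0.28 ± 0.09, adjusted p = 0.0166), a call that was lost without parental library 2 or 3 and without e2 library 2 (adjusted p from 0.0558 to 0.0644).

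The remaining non-ATPase genes differed from parental cells in e1. Psmd4, a ubiquitin receptor, rose from 239 ± 2.25 to 307 ± 34.2 TPM (0.36 ± 0.07), and stood at 232 ± 2.24 TPM in e2, not called. Psmd1, a scaffold subunit gene, was at 186, 216 and 209 TPM in parental cells and 189, 155 and 153 TPM in e1, overlapping through e1 library 1. It was called lower (-0.30 ± 0.09, adjusted p = 0.0114), and stood at 213 ± 3.60 TPM in e2. Exons of Psmd1 overlap those of Gm21972 on the same strand and of Htr2b on the other strand, by 553 bases together. Psmd11 had the least stable call, at 0.23 ± 0.09 in e1 (adjusted p = 0.0376). Without e1 library 1 its value was 0.12 (adjusted p = 0.0324), and the call was lost without any single parental library or any single e2 library and under 5 of the other settings (adjusted p from 0.0507 to 0.111).

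**Figure D5:**
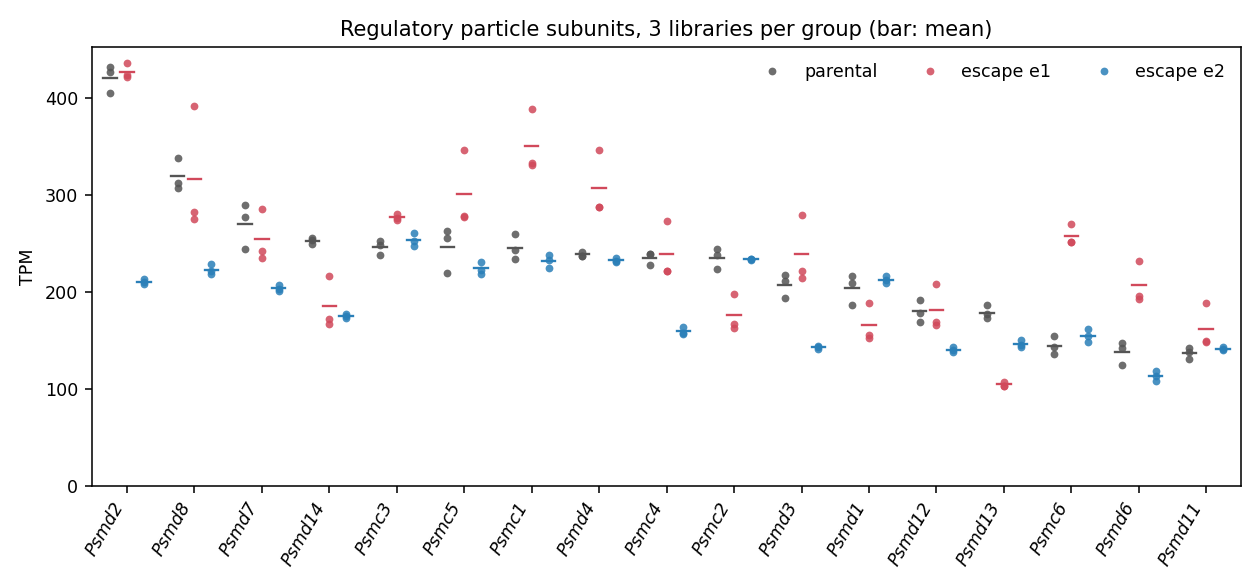
TPM of the 17 regulatory particle genes in every library, ordered by parental mean, with parental libraries in grey, e1 in red and e2 in blue, and a bar at each mean. Psmd2 drops from 405 to 431 TPM in parental libraries to 208 to 213 TPM in e2, and the highest e1 point of each gene is library 1.

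The 3 chaperones that assemble the base of the regulatory particle were all called higher in e2, although 2 of these calls depend on the scaling. Beside them 40.8% of all tested genes were called higher in e2, so a count over 3 genes tells little. Psmd5 stood at 80.2, 78.8 and 75.4 TPM in parental cells, 89.0, 86.8 and 88.2 TPM in e1 and 95.7, 91.9 and 94.1 TPM in e2 (0.17 ± 0.05 and 0.26 ± 0.05 against parental cells). The groups did not overlap, and the e2 value was 0.17 after median-ratio scaling and 0.14 in the rlog values. Psmd10, also called gankyrin, was at 40.7, 46.4 and 43.3 TPM in parental cells, 38.5, 49.5 and 44.5 TPM in e1 and 52.1, 52.7 and 51.7 TPM in e2 (0.26 ± 0.09 in e2, adjusted p = 0.0219). Psmd9 was at 28.6, 30.2 and 29.6 TPM, fell to 26.2, 25.5 and 25.5 TPM in e1 (-0.19 ± 0.05) and stood at 32.5, 32.0 and 31.9 TPM in e2 (0.12 ± 0.05, adjusted p = 0.0429), and an annotated RNA on the other strand, Gm26745, overlaps 1849 bases of its exons. Median-ratio scaling (0.03 and 0.16) and the rlog values (0.02 and 0.14) each ended the e2 calls of Psmd9 and Psmd10. Psmd10 was called higher in e2 than in e1 (0.24 ± 0.09, adjusted p = 0.031), but not without e1 library 1 (0.15, adjusted p = 0.0597). This call was also lost without e1 library 3 and without any single e2 library. Fits of 2 groups, median-ratio scaling and the rlog values lost it too (adjusted p from 0.0505 to 0.097 over these settings). The e2 calls of Psmd9 and Psmd10 against parental cells were also lost without parental library 1 or 3 and without any single e2 library, with an adjusted p from 0.0502 to 0.118. That of Psmd9 was lost as well without e1 library 2 or 3 (0.0636) and with the library number as a block (0.0845).

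Among other caps of the core, Psme3, a nuclear activator that works without ubiquitin, stood at 98.5, 119 and 118 TPM in parental cells, 152, 105 and 104 TPM in e1 and 66.4, 67.7 and 64.9 TPM in e2. All e2 libraries lay below all others (-0.74 ± 0.14, adjusted p = 0.000814), and the e1 value of 0.08 ± 0.14 became -0.091 without e1 library 1 and -0.0046 without parental library 1. Psme4, an activator linked to histone degradation, rose from 28.4, 34.1 and 33.2 TPM to 45.0, 38.6 and 39.4 TPM in e1 (0.35 ± 0.08) and 40.4, 38.3 and 37.9 TPM in e2 (0.28 ± 0.08). The e2 call was lost with median-ratio scaling (0.19, adjusted p = 0.081) and the rlog values (0.16, adjusted p = 0.0709). Psmf1, an inhibitor of the core, was at 18.5, 18.5 and 19.0 TPM, 18.8, 17.01 and 16.3 TPM in e1 and 18.7, 17.4 and 17.5 TPM in e2, and was not called in either line, although it was lower in e1 without e1 library 1 (-0.15, adjusted p = 0.0215). Psma8, the alpha subunit of the testis, was listed at 0 in all 9 libraries. Psmb11, the beta subunit of thymic epithelium, also on chromosome 14, was at most 0.198 TPM in any library. Neither reached 1 TPM in 3 libraries, so neither was tested.

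Genes that act on the proteasome were taken from lists of assembly, receptor, shuttle and transcriptional genes. With 70.6% of all tested genes called in e1 and 73.5% in e2, the number called in lists this small tells little, and the counts serve to place the genes named. Of 5 genes for assembly of the core, 2 were higher and 2 lower in e1, and 2 higher and 3 lower in e2. Psmg1, a chaperone of the alpha ring, stood at 85.6, 87.9 and 84.5 TPM in parental cells and 91.1, 87.7 and 85.7 TPM in e1 but at 37.5, 38.7 and 38.9 TPM in e2 (-1.14 ± 0.05, adjusted p = 2.13e-08), a fall of the size seen for Psmd2. Pomp, which matures the beta rings, fell from 410.0 ± 9.56 to 269 ± 8.94 TPM in e1 (-0.61 ± 0.04) and by less in e2, to 379 ± 8.01 TPM (-0.11 ± 0.04, adjusted p = 0.0463). This e2 call was lost without any single library other than e1 library 1 (adjusted p from 0.0509 to 0.154) and with the 10 highest genes removed (0.154). It was lost as well with the library number as a block (0.062) and in the fit with no trend or robustness (0.0779). Psmg4 rose by 0.76 ± 0.09 in e1 and 0.58 ± 0.09 in e2. A list of 6 genes held receptors, deubiquitinases, a ligase, an adaptor and the subunit gene Sem1. Of these 6, 2 were higher and 1 lower in e1, and 2 higher and 2 lower in e2. The 2 higher in both lines were Sem1 and the adaptor gene AI314180. AI314180, the mouse symbol of the adaptor Ecm29, rose from 25.1 ± 1.16 to 44.2 ± 1.52 TPM in e1 and 45.6 ± 2.01 TPM in e2, and Adrm1, a ubiquitin receptor, fell in e2 (-0.47 ± 0.11). Adrm1 was also lower in e1 without e1 library 1 (-0.22, adjusted p = 0.00405), and 2 of the 6 were then higher and 2 lower there. Uchl5, a deubiquitinase, was not called in e2 in the main fit (-0.25, adjusted p = 0.0777). It was called lower there with median-ratio scaling (-0.35, adjusted p = 0.0267), the rlog values (0.0229) and the fit of 2 groups (0.0416). The same held without parental library 1 (0.0136) and without e1 library 1 (0.0274). The ligase gene Ube3c fell by 0.64 ± 0.05 in e1 and by 0.22 ± 0.05 in e2 (adjusted p = 0.00426).

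Of 10 shuttle and segregase genes, which bring substrates to the proteasome, 7 were higher and 1 lower in e1, and 3 higher and 4 lower in e2. Without e1 library 1, 6 were higher in e1, where Nploc4 was no longer called (0.12, adjusted p = 0.0672). Median-ratio scaling gave 6 higher in e1 and 2 in e2, and the library number as a block 5 and 2. Ubqln4 rose by 0.72 ± 0.08 in e1, and Vcp, the ATPase that pulls proteins from complexes, rose by 0.38 ± 0.07 and 0.39 ± 0.07. In e1 library 1, 9 of these 10 genes were above both other e1 libraries, with a median gap of 0.21, as the regulatory particle genes were. Among 9 transcriptional genes, 3 were higher and 3 lower in e1, and 5 higher and 4 lower in e2. With e1 library 1 left out, 3 were higher and 5 lower in e1. Nfe2l1 stood at 74.5, 81.0 and 79.6 TPM in parental cells, 77.8, 69.3 and 71.0 TPM in e1 and 112, 108 and 109 TPM in e2 (0.48 ± 0.06 in e2, adjusted p = 5.46e-05). Nfe2l2, the oxidative stress factor of the same family, stood at 92.0, 88.8 and 82.5 TPM, 77.4, 86.9 and 90.2 TPM in e1 and 230.0, 220.5 and 214 TPM in e2 (1.33 ± 0.07, adjusted p = 1.13e-07). In both genes all e2 libraries lay above all other libraries, and neither was called in e1 with all libraries. Nfe2l1 was lower in e1 without e1 library 1 (-0.16, adjusted p = 0.0138). Of their small Maf partners, Maff fell by 1.79 ± 0.16 in e1 and 1.31 ± 0.16 in e2, Mafk fell by 0.87 ± 0.08 and 0.79 ± 0.08, and Mafg rose by 0.31 ± 0.07 and 0.54 ± 0.07.

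The immunoproteasome genes, which replace proteolytic members, were called higher in both lines. Psmb8 stood at 0.227, 0.219 and 0.202 TPM in parental cells, 7.63, 1.56 and 2.46 TPM in e1 and 21.6, 23.0 and 22.0 TPM in e2. Psmb9 averaged 0.0317 TPM in parental cells, 1.41 TPM in e1 and 7.90 ± 0.675 TPM in e2. Psmb10 was already at 36.4 ± 3.54 TPM in parental cells, and at 52.4 ± 0.503 TPM in e1 and 54.3 ± 2.60 TPM in e2. It made up most of the 36.6 TPM of these 3 genes in parental cells. Psmb8, Psmb9 and Psmb10 together made up 3.30% ± 0.291 of the transcripts of the 6 proteolytic genes in parental cells, 4.08% ± 0.247 in e1 and 8.06% ± 0.0786 in e2 (SD, n = 3), so the constitutive Psmb5, Psmb6 and Psmb7 remained the larger share in each library. The interferon-induced activator genes Psme1 and Psme2 rose by 1.14 ± 0.06 and 1.499 ± 0.07 in e1 and by 0.67 ± 0.06 and 0.93 ± 0.07 in e2.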

How the data were processed

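Gene-level TPM of 9 RNA-seq libraries were deposited by the authors, and with them rlog values on a log2 scale. The tools Salmon and DESeq2 and the build mm10 come per the submitters' processing notes. Their versions, the annotation and the strand setting: not given in the sources used here. Groups and library numbers are per the labels' titles. Members and gene lists were chosen with earlier results of these data known.

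Genes were kept where 3 or more of the 9 libraries reached 1 TPM, and log2(TPM + 1) was modelled. The tool was limma 3.58.1 (R 4.3.3), with a mean per group and empirical Bayes with trend and robustness, two-sided, with Benjamini-Hochberg adjustment over all 12769 genes and a threshold of 0.05. The fit was tested on simulated data. Fold changes are on the log2(TPM + 1) scale with SE, and understate changes of genes near 0. No set test was run. Named in full are Psmb5, Psmb6 and Psmb7, the highest and lowest called member per role and comparison, and Psma8, Psmb11, Psme3, Psme4 and Psmf1. Related genes named are Psmb8, Psmb9, Psmb10, Psme1, Psme2, Nfe2l1, Nfe2l2 and the extremes of each list. Other members and genes named were chosen after their values were seen. Some genes of these lists are not reported here. Coordinates and promoters are from RefSeq (GRCm38.p6, the assembly of mm10). Overlapping exons and near-identical copies (blastn 2.17.0, at least 95% over 200 bases) are from GENCODE annotation of the same assembly. Alternatives were another pseudocount, other filters, 2 other scalings, the rlog values, fits of 2 groups, the library number as a block, no trend or robustness, and each library left out.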

Additional observations from a re-analysis of the deposited data

Results flagged for a closer look

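8 members were called in opposite directions in e1 and e2 against the shared parental libraries. The difference between the lines was called for each in limma. That call follows from how the 8 were picked and adds no support. The share of all tested genes called in opposite directions was not counted. With 70.6% of all tested genes called in e1 and 73.5% in e2, the 8 are listed as single genes and not as a trait of the members. The log2 fold change of e2 minus e1 was -0.85 for Psmb5, -0.32 for Psmb6, -0.37 for Psmb7, -0.55 for Psma7, -0.50 for Psmb2, -0.44 for Psmb3 and -0.86 for Psmd6, each higher in e1 and lower in e2. For Psmd9, lower in e1 and higher in e2, it was 0.31, and 0.19 with the rlog values. In all 8 the e1 and e2 libraries did not overlap, as in 76.5% of all tested genes, and this too follows largely from how the 8 were picked. The e2 side was lost under some settings for Psmb5, Psmb6, Psmd6 and Psmd9, as given above.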

How the results depend on the processing

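Across 18 alternatives, 193 of the counts, medians and sums stayed within their limits and 14 moved. Of the fold changes of named members 1064 kept direction and call, 43 lost the call, 7 gained one and 20 changed sign, none of them called. With median-ratio scaling 2 members were higher in e2 than in parental cells, and the member medians were -0.23 there and -0.47 in e2 against e1. The e2 sums were then 4486 TPM for the core and 3034.5 TPM for the regulatory particle. With the rlog values 2 members were higher in e2 and the median was -0.20. Rescaling after removal of the 10 highest genes raised the core sums to 5713 TPM (parental), 7089 TPM (e1) and 5567 TPM (e2), and the regulatory sums to 4450.7, 4729 and 3766 TPM, by construction. Leaving out 1 library, the member median in e2 against e1 ran from -0.42 to -0.31, the latter without e1 library 1.

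Signs changed in e1 when a library was left out for Psmc4 (-0.087 to 0.065), Psmd2 (-0.0072 to 0.039), Psmd10 (-0.066 to 0.11) and Psme3 (-0.091 to 0.18). In e2 they changed for Psma5 (-0.042 to 0.049) and Psmc2 (-0.046 to 0.018), and in e2 against e1 for Psmf1 (-0.0035 to 0.092). Median-ratio scaling gave -0.094 for Psma5 in e2, and -0.0066 for Psmd5 and -0.058 for Psmf1 in e2 against e1. The rlog values gave -0.081, -0.0055 and -0.051 for the same 3. With the 10 highest genes removed Psmc2 was 0.035 in e2, and Psma2 was 0.025 and Psmb1 2e-04 in e2 against e1. The cause was not tested.

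Deviations of same-numbered libraries correlated between -0.13 and 0.05, so the numbers were not taken as pairs. With the library number as a block, 19 members were higher and 7 lower in e1, 5 higher and 18 lower in e2, and 6 higher and 23 lower in e2 than in e1.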

Other observations

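Among ubiquitin genes, Ubb, a polyubiquitin gene, rose in both lines, by 0.38 ± 0.04 and 0.19 ± 0.04 (limma). Rps27a, a fusion of ubiquitin with a ribosomal protein, fell in e2 by 0.53 ± 0.03 with 0.0042 ± 0.03 in e1. Of the activating enzyme genes, Uba1 rose in e1 by 0.33 ± 0.05 and Uba6 fell there by 0.75 ± 0.11, and neither was called in e2.

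Near-identical transcript copies of other annotated genes were found for 11 of 39 members, and for 4 of them the other gene is in the TPM table. These are Gm609 for Psma3, listed at 0 in every library, A730017L22Rik for Psmd11, at most 15.2 TPM, and the exon-sharing neighbours Nek6 for Psmb7 and Sirt3 for Psmd13.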
